A study of Mus musculus with 154 samples.

Results

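Liver RNA levels of 10 circadian clock genes were followed across mice of 24 strains: Arntl, Npas2, Nfil3, Dbp, Tef, Per1, Per2, Per3, Nr1d1 and Nr1d2. They were listed by symbol, and all 10 were among the 13289 genes of the count table. The control strain B6 (C57BL/6J) contributed 20 mice, the 8 chromosome substitution strains (CSSs) heterozygous for 1 A/J-derived chromosome contributed 63, and 15 double CSSs heterozygous for a pair of A/J-derived chromosomes contributed 71, with 3 to 8 mice in each CSS. All mice were 5 weeks old, listed as male and fasted overnight, and each gave 1 liver library. The library of (B6.A14 x B6.A4)F1 mouse E733 went against that listing, with 3.23 CPM summed over Y-linked genes beside at least 192 CPM in every other mouse, and counts that change without it are given both ways. Strains are named with the dam first, so that (B6 x B6.A8)F1 carried A/J-derived chromosome 8 from its sire on an otherwise B6 background, and A14:A8 is the interaction of chromosomes 14 and 8. A whole chromosome was replaced in each CSS, so no effect could be placed within it. The hour at which each liver was taken is not given in the sources used here.

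The circadian clock is a feedback loop that turns about once a day in nearly every cell of the liver. The activator Arntl (also called Bmal1), with its partner Clock or Npas2, switches on the Per and Cry repressors, the nuclear receptors Nr1d1 and Nr1d2, which repress Arntl, and the transcription factors Dbp and Tef, which bind D-boxes. Nfil3 binds the same D-boxes and represses, and in liver the transcripts of Arntl, Npas2 and Nfil3 peak at nearly the opposite time of day from those of Dbp, Per3 and Nr1d1.

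The start regions of these genes hold some of the short motifs through which that loop runs, and the stretches that hold them are shown so that the genes' levels below can be read beside them. RefSeq promoters on GRCm38.p6 were found for 9 of the 10 genes, all but Per2, and 5 motifs were searched on both strands in the 250 bases before each start. Capitals mark the motif, and each stretch reads 5′ to 3′ on the gene's strand.
Per3, chr4:151044786-151044900, minus strand: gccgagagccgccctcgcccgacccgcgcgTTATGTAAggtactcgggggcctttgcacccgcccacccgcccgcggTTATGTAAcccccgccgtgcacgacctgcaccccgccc
Tef, chr15:81802516-81802581, plus strand: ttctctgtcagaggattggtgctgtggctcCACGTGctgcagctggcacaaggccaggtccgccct
Per1, chr11:69098753-69098818, plus strand: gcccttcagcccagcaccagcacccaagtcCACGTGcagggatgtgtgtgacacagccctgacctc
Nr1d1, chr11:98775378-98775435, minus strand: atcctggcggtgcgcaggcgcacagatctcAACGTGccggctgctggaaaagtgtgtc
Arntl, chr7:113207530-113207558, plus strand: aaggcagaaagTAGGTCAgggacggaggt
Nfil3, chr13:52981040-52981081, minus strand: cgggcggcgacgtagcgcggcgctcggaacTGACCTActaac
The D-box TTATGTAA stood at both marked places in Per3, and 0.819% of the 32851 promoters in the RefSeq table held it. The E-box CACGTG, the site of Arntl and its partners, was found in Per1 and in each of the Tef promoters, against 6.021% of all promoters. Nr1d1 held the E′-box CACGTT and Nfil3 the RORE core TAGGTCA, bound by the Ror and Nr1d receptors, both on the opposite strand, against 3.848% and 2.234% of all promoters. No searched motif, the D-box TTACGTAA included, was found in the 250 bases before the starts of Arntl, Npas2, Dbp or Nr1d2, which says only that these letters are not there. In a window widened after seeing the data to the 50 bases after the start, the second Arntl promoter held the RORE core from base 30, beside 2.606% of all promoters.

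The 10 genes differed widely in level between mice. Levels are CPM, the counts of a gene scaled to a common library size, after TMM scaling of the library size, and log2 values carry a prior count of 2. Counted reads per mouse ranged from 4638701 to 30465477. Arntl ranged from 4.29 to 37.8 CPM over all mice with a median of 17.9 CPM, and its partner Npas2 from 0.065 to 3.81 CPM with a median of 1.08 CPM. Npas2 was the scarcest of the 10, with 15 or more counts in only 88 mice and 1 count in the lowest. Nfil3 ranged from 4.52 to 49.8 CPM with a median of 17.5 CPM.

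Dbp spanned the widest range of the other 9 genes, from 2.08 to 52.6 CPM with a median of 13.3 CPM, a 25.3-fold difference between the highest and lowest mouse. Per3 ranged from 1.96 to 44.6 CPM, a 22.8-fold difference, and Nr1d1 from 2.34 to 40.5 CPM, a 17.3-fold difference. Tef and Nr1d2, the highest of the 10 in CPM, ranged 3.61-fold and 3.66-fold around medians of 95.9 and 79.6 CPM. Per1 ranged from 4.60 to 35.9 CPM and Per2 from 2.90 to 20.02 CPM. The mice of B6 alone already covered most of these ranges: Dbp ran from 4.24 to 52.6 CPM in them and Arntl from 4.29 to 34.3 CPM, and the 3 kinds of strain overlapped for every gene. Dbp shares 539 exon bases with Sphk2 and Nr1d1 shares 263 with Thra, each on the opposite strand, and the strand setting used in counting is not given in the sources used here.

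**Figure D1:**
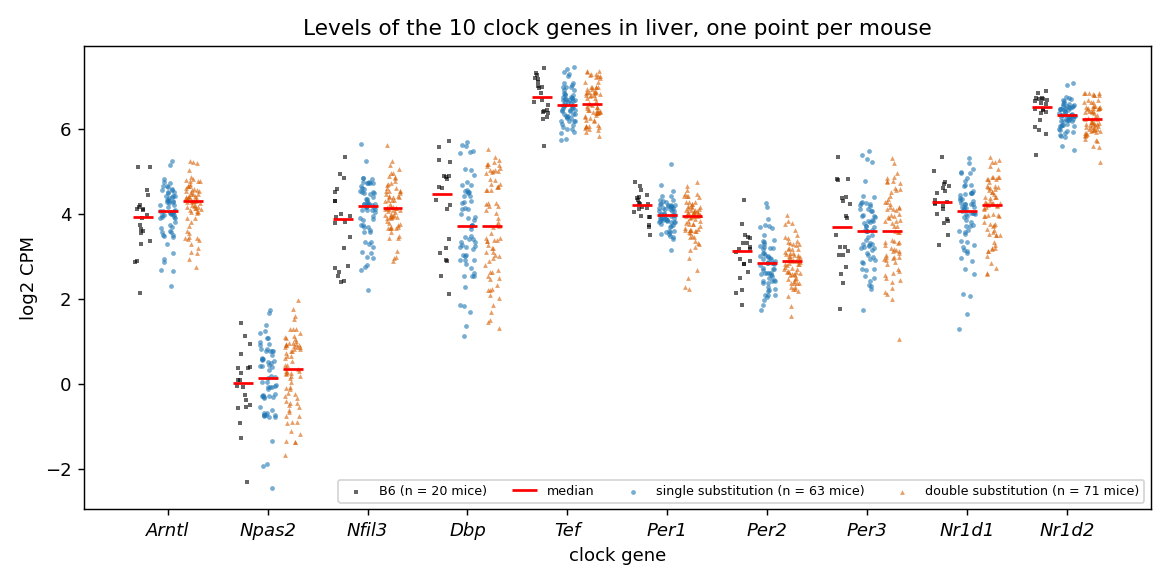
Level of each of the 10 clock genes (log2 CPM, y axis) in every mouse, split into B6 (black squares), single CSSs (blue circles) and double CSSs (orange triangles), with red bars at the medians. The 3 kinds of strain overlap for every gene, and Dbp, Per3 and Npas2 spread more widely than Tef and Nr1d2.

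Most of this spread lay between mice of the same strain. The SD of log2 CPM within strains was 1.04 for Dbp, 0.83 for Npas2, 0.79 for Per3, 0.69 for Nr1d1, 0.63 for Nfil3 and 0.57 for Arntl, against a median of 0.23 over all 13289 genes. Dbp thus stood at percentile 99.7 of all genes. The lowest of the 10 were Nr1d2 at 0.33, percentile 71.3, and Tef at 0.39, percentile 79.4. Among genes averaging 2 or more on the log2 CPM scale, Nr1d2 stood at percentile 91.3 and Tef at 94.8. Strain accounted for between 4.6% (Npas2) and 15.7% (Per1) of the variance of these genes, beside a median of 13.3% over all genes.

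Within strains, mice that were high in Arntl were low in Dbp. The correlation of the pair, with strain means removed, was r = -0.733 (Spearman's rho = -0.756) over all mice, with p = 1e-05 for each in a two-sided permutation test within strains, the smallest value that 100000 permutations can give. In the B6 mice alone r was -0.859 (n = 20), in the single CSSs -0.723 (n = 63) and in the double CSSs -0.703 (n = 71). Without the 2 mice farthest from the median of Arntl it was -0.726. This was the only pair tested by permutation, and the other correlations below are descriptions. In them both genes of a pair share each mouse's library depth and strain. The permutation test took mice of a strain as exchangeable, and the slope tests below took them as independent. Strain mates whose label numbers follow each other were closer, as given below, so these p-values may be too small.

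**Figure D2:**
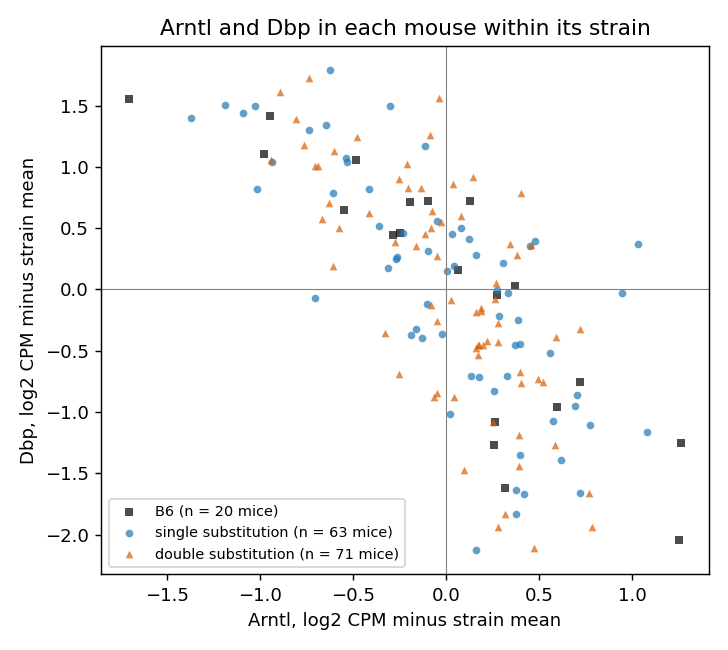
Arntl (x axis) against Dbp (y axis) in each mouse, both as log2 CPM minus the mean of the mouse's strain, with B6 as black squares, single CSSs as blue circles and double CSSs as orange triangles. Mice above their strain's mean in Arntl lie mostly below it in Dbp (r = -0.733), in all 3 kinds of strain.

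The same opposition ran through the activators and the D-box repressor on one side and Dbp and Per3 on the other. Arntl rose and fell with Npas2 and with Nfil3 (r = 0.73 for each). Against Per3, r was -0.75 for Arntl, -0.66 for Npas2 and -0.71 for Nfil3. The sign was negative in 24 of 24 strains for Arntl and in 23 for Npas2 and for Nfil3. Against Dbp, r was -0.67 for Npas2 and -0.69 for Nfil3. The sign with Dbp was negative in 22 of 24 strains for Arntl, 23 for Npas2 and 22 for Nfil3. A sign rests on as few as 3 mice in a strain. Nr1d1 stood apart: its r was -0.34 with Arntl, -0.36 with Npas2 and -0.26 with Nfil3, negative in 17 to 18 of 24 strains.

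The D-box activators and Per3 formed the tightest group. Tef followed Per3 with r = 0.94 and Dbp with r = 0.89, and Dbp followed Per3 with r = 0.89 and Nr1d2 with r = 0.82. Per2 was closest to Tef (r = 0.75) and weakly tied to Nr1d1 (r = 0.23). Per1 was at most weakly tied to the other 9 over all mice, with r between -0.08 and 0.16 and rho between -0.18 and 0.25. The kinds of strain differed. In the single CSSs its rho was 0.36 with Dbp and -0.37 with Nfil3. In B6 these were -0.21 and 0.35, and in the double CSSs 0.08 and -0.20. The first principal component of the 10 genes within strains held 63.7% of their variance and the second 10.9%.

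**Figure D3:**
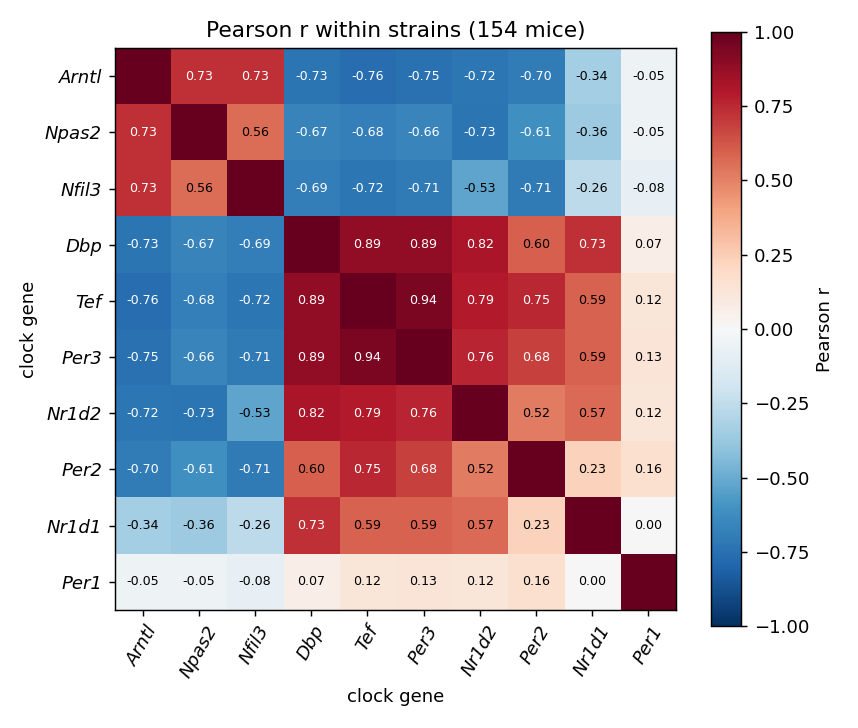
Pearson r between each pair of the 10 clock genes over all mice with strain means removed (colour scale from -1 to 1, value in each cell, x and y axes list the genes). Arntl, Npas2 and Nfil3 are positive with each other and negative with Dbp, Tef, Per3, Nr1d2 and Per2, while the values for Per1 lie between -0.08 and 0.16.

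The slope of each gene's count on the log2 level of Arntl, with the 24 strain means in the model, put these ties against the whole table. Of the other 9 clock genes 8 passed (edgeR's quasi-likelihood test, Benjamini-Hochberg over all genes, FDR threshold 0.05), beside 12.5% of all genes. Npas2 rose by 1.23 ± 0.09 (SE) on the log2 scale for each log2 unit of Arntl (adjusted p = 1.005e-22) and Nfil3 by 0.81 ± 0.07. Dbp fell by 1.24 ± 0.10 (adjusted p = 3.43e-21), Per3 by 1.01 ± 0.07, Per2 by 0.62 ± 0.05, Tef by 0.51 ± 0.04 and Nr1d2 by 0.41 ± 0.03. Nr1d1 fell by 0.33 ± 0.09 (adjusted p = 0.009178), and the slope of Per1 was -0.02 ± 0.06 (adjusted p = 0.8803).

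With Dbp in the place of Arntl, 8 of the other 9 again passed, beside 11.9% of all genes. Per3 rose by 0.68 ± 0.03 per log2 unit of Dbp, Nr1d1 by 0.47 ± 0.04, Tef by 0.34 ± 0.01, Per2 by 0.31 ± 0.03 and Nr1d2 by 0.26 ± 0.02. Npas2 fell by 0.58 ± 0.05, Nfil3 by 0.41 ± 0.04 and Arntl by 0.39 ± 0.03. Per1 had a slope of 0.03 ± 0.03 (adjusted p = 0.5546). In the 20 B6 mice alone 5 of the 9 passed on Dbp, beside 0.993% of all genes.

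**Figure D4:**
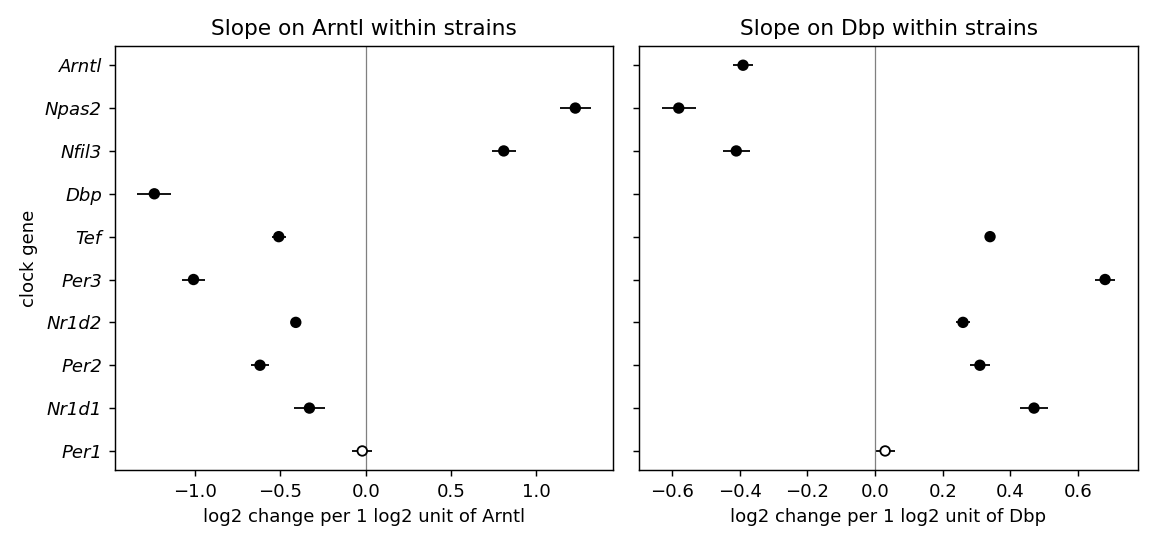
Slope of each clock gene (y axis) on Arntl (left) and on Dbp (right), as log2 change per log2 unit of the anchor gene (x axes), with bars of 1 SE. Filled points passed the FDR threshold of 0.05 and open points did not. Per1 is the only open point in each panel, and Npas2 and Nfil3 lie on the other side of 0 from Dbp, Tef, Per3, Nr1d2, Per2 and Nr1d1.

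Glucocorticoids and fasting signals are known to induce Per1 directly, and their part in its level here was not tested. At the FDR threshold, most of the listed fasting genes rose with Per1, and none of the other 9 clock genes did. None of these passed on Per1, beside 6.31% of all genes called. At an unadjusted p under 0.05 there was 1, Per2, with a slope of 0.28 ± 0.11 (adjusted p = 0.1246). Of 20 further clock genes 2 rose with Per1, the repressors Ciart, by 1.37 ± 0.19 per log2 unit (adjusted p = 1.371e-07), and Bhlhe40, by 0.59 ± 0.10. Of 12 fasting genes 8 rose, among them Igfbp1 by 0.68 ± 0.18 and Ppargc1a, a coactivator of glucose production, by 0.53 ± 0.10. Of 11 glucocorticoid targets 5 rose, led by Pim3 at 0.64 ± 0.09 and the tyrosine-degrading enzyme Tat at 0.63 ± 0.09, and none fell. Of 19 clock output genes 7 rose and none fell, with Lpin1, a regulator of fat metabolism, at 0.89 ± 0.17 and Rgs16 at 0.83 ± 0.25 the steepest. Some of these genes, Ciart, Lpin1 and Usp2 among them, also passed on Arntl, with slopes of the opposite sign. On Per1 1 of 5 hepatocyte markers rose, and its part in the result was not tested.

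Of 20 other genes of the clock, 4 rose with Arntl and 4 fell (40% called, beside 12.5% of all genes). Among them, the repressor Cry1 rose by 0.50 ± 0.05 per log2 unit, Clock by 0.14 ± 0.02 and Rora by 0.08 ± 0.02. Bhlhe41 fell by 0.84 ± 0.14, Ciart by 0.64 ± 0.13, Cry2 by 0.15 ± 0.04 and Hlf, a D-box activator related to Dbp, by 0.14 ± 0.03. The remaining 12, among them the kinases Csnk1d and Csnk1e that act on the Per proteins, did not pass.

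Most of the listed genes known as outputs of the clock in liver also passed on Arntl, in both directions. Of 19 measured, 5 rose with Arntl, 7 fell and 7 did not pass (63.2% called, beside 12.5% of all genes). Cdkn1a, an inhibitor of the cell cycle, rose by 1.01 ± 0.10 per log2 unit and Insig2, which restrains cholesterol synthesis, by 0.37 ± 0.05. The ubiquitin protease Usp2 fell by 0.71 ± 0.08 and the cell cycle kinase Wee1 by 0.59 ± 0.08. Of the 11 glucocorticoid targets 6 rose (54.5%), with Cdkn1a, which is in both lists, and Lcn2 (0.68 ± 0.18) the steepest. Of the 12 fasting genes 2 rose, Pdk4 by 0.32 ± 0.07 and G6pc by 0.25 ± 0.07, while Cpt1a fell by 0.13 ± 0.04. Of 8 fed-state genes Srebf1 rose by 0.19 ± 0.07 and Elovl6 fell by 0.23 ± 0.05. The share called was 25% in the fasting list and 25% in the fed-state list.

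Among the 9615 more abundant genes, those averaging 2 or more on the log2 CPM scale, the ones most like Arntl within strains were Clpx (r = 0.87), a mitochondrial protease subunit, Lgalsl (0.86), Btg1 (0.75), Tab2 (0.74) and Dtx4 (0.74). The lowest were Tef (r = -0.76), Per3 (-0.75), Dbp (-0.73), Nr1d2 (-0.72) and Per2 (-0.70), all of them clock genes named above. Those most like Dbp were Tef (r = 0.89), Per3 (0.89), Nr1d2 (0.82), Narf (0.78) and Tbc1d10a (0.73). Among the lowest with Dbp were Pxmp4 (r = -0.81), Lgalsl (-0.76), Clpx (-0.75) and Arntl (-0.73).

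A clock contrast, the mean log2 CPM of Arntl, Npas2 and Nfil3 minus that of Dbp, Per3 and Nr1d1, gave each mouse a single value. It ran from -3.82 to 2.16 over all mice, with a median of -0.93, and from -3.82 to 1.38 in B6. At the low end, B6 mouse E647 had 4.29 CPM of Arntl, 52.6 CPM of Dbp and 40.5 CPM of Per3. At the high end, (B6.A14 x B6.A4)F1 mouse E744 had 29.1 CPM of Arntl, 2.37 CPM of Dbp and 1.96 CPM of Per3. Per1 was 20.7 CPM in the first and 15.4 CPM in the other.

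Strain means of the contrast ranged from -2.45 ± 0.90 (SD, n = 3) in (B6.A3 x B6.A8)F1 to 0.90 ± 0.80 (SD, n = 5) in (B6.A14 x B6.A4)F1. The SD of the strain means was 0.75, below the SD of 1.27 within strains, and strain held 12.3% of the variance. Mice of 1 strain whose label numbers follow each other were closer: the contrast differed by a median of 0.83 in 31 such pairs and by 1.38 in the other 512 pairs of strain mates. For Tef the medians were 0.15 and 0.42 and for Per3 0.41 and 0.89, while for Per1 both were 0.32. What the label numbers stand for is not given in the sources used here, pairs share mice, and this difference was not tested.

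**Figure D5:**
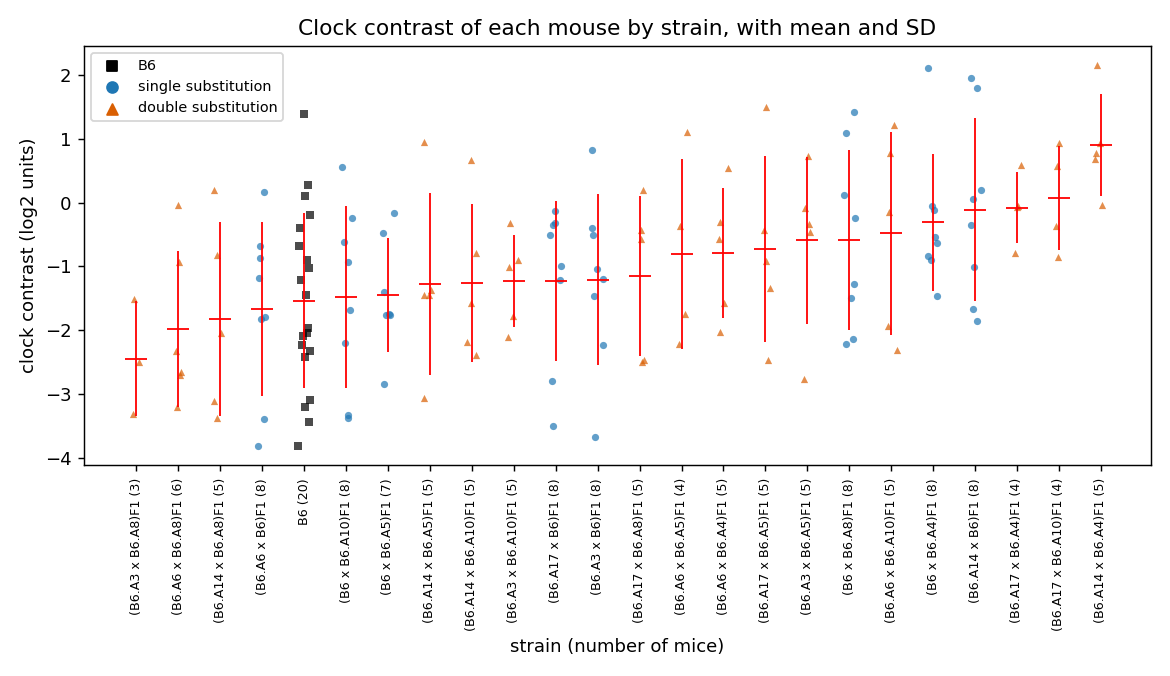
Clock contrast (y axis, log2 units) of each mouse in the 24 strains (x axis, ordered by mean, number of mice in parentheses), with red bars at the mean and 1 SD on each side. Strain means run from -2.45 to 0.90, and the mice of B6 alone reach from -3.82 to 1.38.

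Depth and the markers of other cell types were set beside the contrast. Within strains its r was -0.14 with log2 counted reads, 0.05 with the share of mitochondrial counts, and between -0.19 (red blood cell markers) and 0.18 (endothelial markers) for the summed levels of 7 marker lists. For the hepatocyte markers r was 0.07 with the contrast, 0.24 with Arntl and -0.05 with Dbp. On Arntl, none of the hepatocyte, Kupffer, endothelial, stellate, leukocyte or red blood cell markers passed and 1 of 4 cholangiocyte markers did. Of the 5 red blood cell markers 3 rose on Dbp, 4 on Nr1d1, 3 on Nr1d2 and 2 on Per3, and their summed level ranged from 110.5 to 753 CPM over the mice. On Dbp, on Tef and on Per3, 1 of 5 hepatocyte and 1 of 4 cholangiocyte markers fell. On Nr1d2 1 of 5 endothelial and 1 of 4 cholangiocyte markers fell. On Nfil3 1 of 5 hepatocyte, 1 of 5 endothelial and 1 of 4 cholangiocyte markers rose. Of the 4 cholangiocyte markers 1 also rose on Npas2 and 1 fell on Per2. Their part in the results was not tested. The 5 hepatocyte markers summed to between 45220 and 144100 CPM in every mouse. In bulk liver, fewer cells of a type and less RNA per cell cannot be told apart.

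Whether the substituted chromosomes changed these genes depended on how variation between mice was modelled, so each count is given with its alternatives. The model held 8 main effects, 15 interactions and 5 surrogate variables, which stand for unlabelled variation between libraries. With surrogate variables estimated from counts scaled to the mean library size, 5 of the 10 genes (Nfil3, Dbp, Tef, Per2 and Per3) differed among strains, beside 51.4% of all genes. With surrogate variables estimated from CPM, which was run first, 0 did by edgeR's quasi-likelihood test, beside 50.3% of all genes, and 2 had an unadjusted p under 0.05. With 10 surrogate variables 0 did by the same test, and 1 had an unadjusted p under 0.05. The share of all genes at that setting is not reported here. Without surrogate variables 5 did, beside 62.2% of all genes, and without mouse E733, with the surrogate variables estimated again, 3 did.

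Of the 80 main effects on the 10 genes 11 passed (13.8%), beside 11.1% over all genes, and 3 passed with surrogate variables from CPM, beside 10.9%. Of the 11, 9 were lost with CPM, so not all of these 3 are among the 11. Without surrogate variables 7 passed, but 7 of the 11 were lost, so the sets differ. Of all genes 10.3% then passed for A4, 22.6% for A14 and 40.4% for A8. Without mouse E733 6 passed. (B6 x B6.A4)F1 held 5 of the 11, in a strain where 13.5% of all genes passed. Dbp was 3.43 to 10.8 CPM in its 8 mice and 4.24 to 52.6 CPM in B6, so that the groups overlapped, and its log2 change was -1.55 ± 0.45 (SE, adjusted p = 0.01276). Nr1d1 was 3.01 to 17.1 CPM there and 9.51 to 40.1 CPM in B6, a log2 change of -0.98 ± 0.29 (adjusted p = 0.01552). With surrogate variables from CPM both still passed, at -1.41 ± 0.42 and -1.07 ± 0.28. The other 3 in this strain, Tef (-0.51 ± 0.16), Per2 (-0.72 ± 0.22) and Nfil3 (0.91 ± 0.24), did not pass there.

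In (B6.A14 x B6)F1, where 22.5% of all genes passed, the log2 change was -0.45 ± 0.16 for Tef, -0.93 ± 0.34 for Per3, 0.86 ± 0.31 for Npas2 and 0.65 ± 0.25 for Nfil3. In (B6 x B6.A8)F1, with 29.6% of all genes, it was 0.60 ± 0.22 for Arntl and 0.72 ± 0.27 for Nfil3. These 6 passed with the scaled counts (adjusted p of 0.02926 to 0.04539) and none of them with surrogate variables from CPM. Without mouse E733 Npas2 alone of the 6 still passed. Only 2 of the genes lie on a chromosome that was substituted: Per3 on chromosome 4 had a log2 change of -0.70 ± 0.33 in (B6 x B6.A4)F1 (adjusted p = 0.1074), and Nr1d2 on chromosome 14 had -0.28 ± 0.13 in (B6.A14 x B6)F1 (adjusted p = 0.07383). Without surrogate variables 1 of these 2 passed.

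Of the 150 interactions 9 passed (6%), beside 5.96% over all genes, and 4 passed with surrogate variables from CPM, beside 5.42%. Without surrogate variables 3 passed, when 36.9% of all genes passed in A14:A8 and 29.9% in A6:A8. Without mouse E733 6 passed when the surrogate variables were estimated again. When they and the dispersions were kept the count was 9. In that refit only A14:A4, the interaction of the mouse's own strain, was tested again. The other calls were carried over, so that count says nothing about them. A14:A8 held 7 of the 9, in a combination where 32.4% of all genes passed. Per3 was 14.9, 15.3, 20.4, 36.3 and 39.8 CPM in the 5 (B6.A14 x B6.A8)F1 mice, 3.25 to 14.2 CPM in (B6.A14 x B6)F1, 4.86 to 18.2 CPM in (B6 x B6.A8)F1 and 3.27 to 40.5 CPM in B6. The double CSS lay above every (B6.A14 x B6)F1 mouse, overlapped the other groups, and gave an interaction of 2.30 ± 0.56 (SE, adjusted p = 0.0005794).

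The interaction A14:A8 was 1.94 ± 0.71 for Dbp, 0.91 ± 0.28 for Tef and 0.91 ± 0.36 for Per2, and -1.71 ± 0.56 for Npas2, -1.42 ± 0.44 for Nfil3 and -0.98 ± 0.37 for Arntl. Per3, Dbp, Tef and Npas2 also passed with surrogate variables from CPM (adjusted p of 0.003643 to 0.04566). The other 2 calls were in A6:A8, where 24.8% of all genes passed, Per2 at 0.93 ± 0.34 and Nfil3 at -1.08 ± 0.41. Both, and Per2 in A14:A8, were lost without mouse E733 when the surrogate variables were estimated again. With 10 surrogate variables 0 main effects and 0 interactions of the 10 genes passed edgeR's test, with 4 and 15 at an unadjusted p under 0.05. The shares over all genes were then lower too: 2.71% for A4, 5.96% for A14, 9.2% for A8, 3.18% for A6:A8 and 11% for A14:A8. Dbp in (B6 x B6.A4)F1 was then 0.20 and in A14:A8 -0.22.

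The 5 surrogate variables held 11% of the contrast's variance within strains and between 6.3% (Per1) and 28.6% (Npas2) of that of the 10 genes, beside a median of 21.4% over all genes. The mean contrast, which is built from 6 of these genes, was -0.31 ± 1.07 (SD, n = 8) in (B6 x B6.A4)F1 beside -1.54 ± 1.37 (SD, n = 20) in B6, and (B6.A14 x B6.A8)F1 had -1.83 ± 1.52 (SD, n = 5). Without collection times, a strain effect on these genes and a difference in the hour of collection between strains cannot be told apart.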

How the data were processed

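RNA-Seq of liver from 154 mice was analysed. The deposited values are raw counts per gene: the authors aligned reads to mm10 and then to an A/J genome with TopHat2 and counted them with HTSeq on GENCODE vM7. Depth was 4638701 to 30465477 counts per mouse. All columns were matched to mice by title (0 unused), and mice were grouped by the strain label, which lists the sire first. Nothing in the labels gives flow cell. Gene positions came from GENCODE vM21 (GRCm38), and 47 genes without a position were counted as trans.

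Counts were normalized by TMM and fitted in edgeR (version 4.0.16, R 4.3.3) with 5 svaseq surrogate variables (sva 3.50.0) beside the terms for single chromosomes and their interactions. Genes were tested with the quasi-likelihood F-test, with cis and trans genes of an effect adjusted separately, and slopes on a clock gene were fitted with strain means and no surrogate variables. The 10 genes, the gene lists and the tests were chosen with earlier results of these data known. Surrogate variables were first estimated from CPM. After those member results had been seen, the input was changed to counts scaled to the mean TMM library size, to match an earlier description of the processing of these data. Before the change, the number of A8 calls over all genes was also computed with the mean, geometric mean and median library size. The change raised the number of calls among the 10 genes, so both inputs are reported, with CPM as an added alternative.

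Named were the 10 genes, for Arntl and Dbp the 5 genes of highest and lowest r, every other clock gene called on Arntl, and the 2 steepest per direction in the other lists. Some genes that meet this rule are not reported here. For Per1 and for the strain effects, genes were named after their values were seen. Alternatives were 0 or 10 surrogate variables, DESeq2's size factors and Wald test (1.42.0), limma-trend (3.58.1), stricter filters and thresholds, subsets of strains and leaving out mice. On simulated data of 13289 genes, 100 of 100 genes with a slope of 0.25 on Arntl and 100 of 100 with an A14:A8 effect of 1 (log2) were recovered. The simulated counts held no unlabelled variation between mice and took their spread from the trend over all genes. The 10 clock genes varied more within strains (SD of 0.33 to 1.04, beside a median of 0.23 over all genes). The recovery of effects in genes that vary this much was not tested. Mice of a strain were taken as separate animals, and 1 mouse with low Y-linked counts, E733, was kept.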

Additional observations from a re-analysis of the deposited data

Results flagged for a closer look

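In 220 sets of 4 to 8 mice, each a gene in a strain, 6 held a mouse far from its strain mates by Dixon's criterion, which chance alone exceeds in about 1 of 20 sets. Npas2 was -2.44 log2 CPM in (B6.A3 x B6)F1 mouse E802, below the -0.08 to 1.68 of the others. Nfil3 was 4.78 in (B6.A14 x B6.A10)F1 mouse E224, above 3.68 to 3.93. Dbp was 5.16 in (B6.A3 x B6.A5)F1 mouse E323, above 2.80 to 3.42. Per1 was 4.69 in (B6 x B6.A10)F1 mouse E472, above 3.81 to 4.22. Nr1d2 was 5.74 in (B6.A14 x B6.A5)F1 mouse E277, below 6.48 to 6.66, and 5.57 in (B6.A17 x B6.A5)F1 mouse E379, below 6.27 to 6.51.

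The interaction term passed in 9 of 150 tests on the 10 genes (6%), beside 5.96% of the tests over all genes. In A14:A8 32.4% of all genes passed and in A6:A8 24.8% did. For A14:A8 the log2 values were 2.30 for Per3, 1.94 for Dbp, 0.91 for Tef, 0.91 for Per2, -0.98 for Arntl, -1.42 for Nfil3 and -1.71 for Npas2. For A6:A8 they were 0.93 for Per2 and -1.08 for Nfil3. Of these, 4 also passed with surrogate variables estimated from CPM and none with 10 surrogate variables. With 10, 11% of all genes passed in A14:A8 and 3.18% in A6:A8. Without mouse E733, with the surrogate variables estimated again, Per2 in A14:A8 and A6:A8 and Nfil3 in A6:A8 were lost. Without collection times these interactions cannot be told apart from a difference in the hour of collection between strains.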

How the results depend on the processing

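The correlation of Arntl and Dbp stayed between -0.859 and -0.7 in all 9 alternatives. On Arntl, 7 or 8 genes passed in each alternative, 7 with the filter of 15 counts in 75% of mice, which removed Npas2, 7 in the B6 mice alone and 7 in the single CSSs alone. On Dbp, 7 passed with that filter and 5 in the B6 mice alone. The ties that were lost in B6 alone were Nr1d1 on Arntl (-0.14), and Npas2 (-0.46), Nr1d1 (0.28) and Nr1d2 (0.22) on Dbp, and in the single CSSs alone Nr1d1 on Arntl (-0.30). In B6 alone the slope of Per1, which never passed, was 0.09 on Arntl and -0.07 on Dbp.

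Genes that differed among strains numbered 5, but 0 with 10 surrogate variables, 0 with surrogate variables from CPM (an alternative chosen after seeing the data), 0 at FDR 0.01 and 1 with at least 15 counts in 75% of mice. Main effects numbered 11, but 7 with 0 surrogate variables, 0 with 10, 3 from CPM, 5 with the stricter filter and 1 at FDR 0.01. The 7 and the 3 are not all among the 11. Interactions numbered 9, but 3 with 0 surrogate variables, 0 with 10, 4 from CPM, 2 with the stricter filter and 3 at FDR 0.01. With 10 surrogate variables the share of all genes called was also lower in A4, A14, A8, A6:A8 and A14:A8, as given above. Leaving out mouse E733 gave 3 genes that differed among strains, 6 main effects and 6 interactions with the surrogate variables estimated again. With them kept it gave 9 interactions, but only A14:A4 was then tested again. Leaving out single mice gave 6 to 10 interactions. In the refits that kept the surrogate variables, only the interaction of the left-out mouse's own strain was tested again. The other calls were carried over. Only double CSSs with 5 or fewer mice were used, so the A6:A8 calls were not tested in this way.

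With 10 surrogate variables the sign turned for A14 in Tef (0.16), Npas2 (-0.12), Per3 (0.40), Nfil3 (-0.13) and Nr1d2 (0.05), for A4 in Tef (0.17), Per3 (0.59) and Dbp (0.20), for A8 in Nfil3 (0.00), for A6:A8 in Per2 (-0.32) and Nfil3 (0.09), and for A14:A8 in Tef (-0.14), Arntl (0.10), Per2 (-0.52) and Dbp (-0.22). The cause was not tested. No paired analysis was possible because the labels carry no replicate numbers shared between strains. Npas2, at 1 to 99 counts, is limited by depth.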

Other observations

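Clock, the partner of Arntl, was described above only for its tie to Arntl. Of its 23 strain effects, looked at after their values were seen, 7 passed (edgeR's quasi-likelihood test, adjusted p of 3.713e-09 to 0.03044). Clock was picked from the 20 other clock genes. Among these 15% of main effects passed, beside 11.1% over all genes, and 6% of interactions, beside 5.96%. Its log2 change was 0.37 ± 0.06 (SE) for A8, an effect for which 29.6% of all genes passed, 0.31 ± 0.06 for A14 (22.5% of all genes) and 0.18 ± 0.06 for A4 (13.5%). The interactions were -0.75 ± 0.10 for A14:A8 (32.4%), -0.48 ± 0.10 for A6:A8 (24.8%), -0.36 ± 0.11 for A3:A8 (7.56%) and -0.33 ± 0.10 for A17:A8 (8.68%). All 7 also passed with surrogate variables from CPM, and 2 passed with 10 surrogate variables, A8 at 0.24 ± 0.06 and A14:A8 at -0.49 ± 0.11. Clock followed Arntl within strains, so without collection times these effects cannot be told apart from a difference in the hour of collection.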
